A study of Mus musculus with 6 samples.

Results

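The cytosolic ribosomal protein genes were taken as every gene whose symbol is Rps or Rpl with a number, or Rplp0, Rplp1, Rplp2 or Rpsa, with the ribosomal S6 kinases left out. The members were chosen with earlier results of these data known. The rule itself used names and no measured value. It found 100 probe sets, each listed for 1 gene alone, that cover 46 genes among the 45037 probe sets and 18193 genes measured. Of these, 22 genes with 56 probe sets belong to the small ribosomal subunit and 24 genes with 44 probe sets to the large one. A probe set is a group of short DNA probes on the array that together measure 1 transcript region. Each gene is described by its brightest probe set, the one with the highest mean log2 intensity over the 6 arrays, and the other probe sets of the gene are given where they differ.

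The arrays measured whole dorsal root ganglia (DRGs) taken at P60 from Meis1cko and control animals, with 3 mice per genotype and 1 array per mouse. In Meis1cko mice, Cre driven by the Nav1.8 promoter removes a floxed exon of Meis1, a homeodomain transcription factor gene, from nociceptors. The labels call the comparison group Control and name no allele or treatment for it. RNA came from cervical, thoracic and lumbar ganglia, so neurons without Cre, glia, vessels and connective tissue also gave signal. In such tissue, fewer cells of a type and less RNA per cell cannot be told apart.

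Ribosomal proteins assemble with ribosomal RNA into the small subunit, which reads the mRNA, and the large subunit, which joins amino acids. Their genes are transcribed at high rates in nearly every cell, and most of their mRNAs begin with a stretch of pyrimidines that places their translation under nutrient and growth signals. Sensory neurons also carry ribosomes and ribosomal protein mRNAs into their axons. The question for this family was whether its transcripts differed between Meis1cko and control DRGs, and whether the several probe sets of a gene gave the same answer.

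Sequences around the transcription start are shown for a few members, to let the pyrimidine stretch be seen where it is present. The windows below come from RefSeq promoters of GRCm38.p6 and run 5′ to 3′ from 70 bases before the annotated start up to and including the first 20 transcribed bases. Capitals mark the longest unbroken run of c and t that reaches into the 20 bases on either side of the start. Rps9 and Rps6 are shown because the results turn on them, Rpl35 and Rps18 as members with 6 probe sets each, and the paralogs Rpl39l and Rpl3l for contrast. The windows are chr7:3703971-3704060 on the + strand for Rps9, chr4:86857348-86857437 on the - strand for Rps6 and chr2:39005112-39005201 on the - strand for Rpl35. Those of the other 3 are chr17:33955646-33955735 on the - strand for Rps18, chr16:10170158-10170247 on the + strand for Rpl39l and chr17:24727756-24727845 on the + strand for Rpl3l.
Rps9: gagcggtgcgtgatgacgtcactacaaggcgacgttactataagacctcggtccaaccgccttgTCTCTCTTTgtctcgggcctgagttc
Rps6: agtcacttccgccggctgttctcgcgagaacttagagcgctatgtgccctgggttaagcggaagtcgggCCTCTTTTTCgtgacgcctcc
Rpl35: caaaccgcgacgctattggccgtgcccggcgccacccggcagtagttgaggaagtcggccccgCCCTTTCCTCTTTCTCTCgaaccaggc
Rps18: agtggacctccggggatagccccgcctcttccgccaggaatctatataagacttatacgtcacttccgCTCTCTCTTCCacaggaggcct
Rpl39l: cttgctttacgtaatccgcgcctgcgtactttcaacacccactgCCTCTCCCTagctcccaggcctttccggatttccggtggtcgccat
Rpl3l: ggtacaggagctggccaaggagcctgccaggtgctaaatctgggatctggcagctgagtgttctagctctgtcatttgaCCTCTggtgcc

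The run is 9 bases long in Rps9, 10 in Rps6, 18 in Rpl35 and 11 in Rps18, and in these 4 it spans the start. In Rpl39l the run of 9 bases ends before the start, and Rpl3l has 5. RefSeq promoters were found for 40 of the 46 genes, with 48 windows. The run had a median of 7 bases in the windows of the family and of 5 in all 32851 windows of 27025 genes, and it reached 8 or more bases in 47.9% of the family's windows and in 21% of all.

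Short motifs were searched on both strands of the windows from 250 bases before to 50 after the start. CCGGAA, the core bound by ETS factors, was in 54.2% of the family's windows and in 14.9% of all. TCTCGCGA was in 18.8% and 0.995%, and AAGATGGC, the core bound by YY1, in 6.25% and 2.75%. CTTTCC was in 45.8% and 26.6%, and it can overlap CCGGAA read on the opposite strand. TATAAA, the TATA box, was in 10.4% and 13.6%. A match is a match of letters and does not show that a factor binds.

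Array-wide values that touch these results are few. The median intensity of an array lay between 62.5 and 65.5. Meis1 itself, on its brightest probe set, read 110, 144 and 90.2 in control and 66.0, 72.1 and 64.2 in Meis1cko DRGs. The groups did not overlap, with a log2 fold change of -0.74 (SE 0.18) and, in limma, an adjusted p of 1. Dimmer probe sets of Meis1 differed from this. On 1459423_at, with a control mean of 32.0, the value was 0.13 and each Meis1cko array lay above each control array. On 1443260_at, with a control mean of 20.2, it was -0.16 and the groups overlapped. The replicate 3 arrays of both genotypes stood apart, with a log2 ratio of 3′ over 5′ Actb control probe sets of 0.43 on average against 1.38 on the other 4 arrays. All 6 connective tissue markers had values below 0, with a median log2 fold change of -0.56 and a summed intensity of 10569 to 17256 in control and 7590 to 9616 in Meis1cko DRGs. Of the 6 macrophage markers, all were below 0 with a median of -0.37, and summed to 1007 to 1755 and 691 to 1383. The part of these cells in the values of the family was not tested.

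The ribosomal protein family as a whole lay close to its control level. The median log2 fold change of the 46 brightest probe sets was -0.06, where the sign is Meis1cko over control, and 34 of the 46 were below 0. Over the 12178 genes whose brightest probe set was at or above the median intensity of 64.8, the median was -0.02 and 55.9% were below 0. The values ran from -0.23 for Rps4l to 0.54 for Rps6. Of the 46 genes, 43 lay within 0.2 of 0, or 93.5%, against 83.0% of all 18193 genes. Among the 3068 genes of any kind with a mean intensity over 1000, 91.1% did. The 95% interval lay inside a change of 1.5-fold in either direction for 41 genes, or 89.1%. The share was 73.0% of all genes and 85.9% of those 3068. The exceptions were Rpl14, Rpl27a, Rpl39l, Rps25 and Rps6, with control means of 166, 618, 27.7, 212 and 368. Rpl27a and Rps25 each also have a brighter probe set shared with other genes, with control means of 8757 and 4299. These had log2 fold changes of -0.04 and 0.00, with intervals inside 1.5-fold.

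None of the 46 brightest probe sets passed an adjusted p of 0.05 in limma, and 1 of the 100 probe sets did, a lower one of Rps9. In all probe sets tested, 0.00888% were called higher and 0.00666% lower. At an unadjusted p under 0.05, 2 of the 100 were higher, in Rps6 and in a dim probe set of Rpl27a, and 1 was lower, in Rps9. The share of all probe sets was 1.15% and 1.17%, so these counts are near the background. With a fold change over 1.5 added, 0 were higher and 1 was lower, the same probe set of Rps9, against 0.318% and 0.357% of all. The groups did not overlap for 3 probe sets that were higher, in Rpl27a, Rpl39 and Rps9, and for 4 that were lower, in Rpl11, Rpl37a and 2 of Rps9. That is close to the 3.21% and 3.43% of all probe sets.

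**Figure D1:**
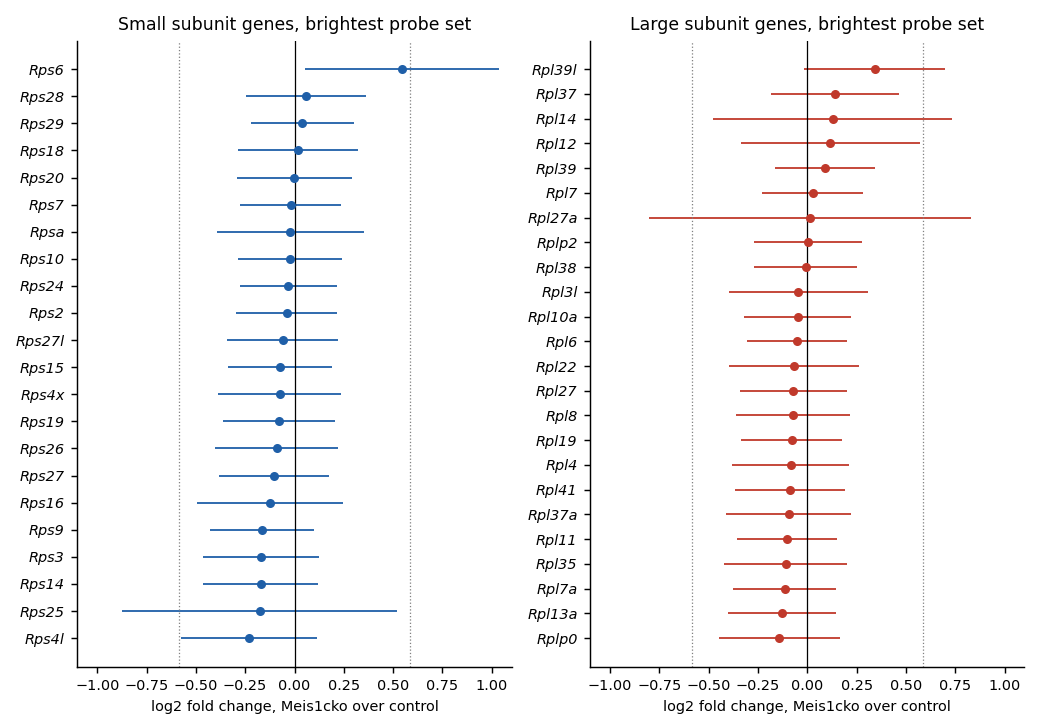
Log2 fold change of the brightest probe set of each of 46 ribosomal protein genes, Meis1cko over control, with the small subunit on the left and the large subunit on the right. Points are estimates and bars 95% intervals from limma (n = 3 arrays per genotype), and dotted lines mark a change of 1.5-fold. Of the 46 genes, 43 lie within 0.2 of 0 and Rps6 lies highest at 0.54.

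The subunits did not stand apart from each other. The median log2 fold change was -0.07 for the 22 small subunit genes, with 18 below 0, and -0.06 for the 24 large subunit genes, with 16 below 0. For the 34 genes with a mean intensity over 1000 across all 6 arrays it was -0.07, with 29 below 0, and the interval of each of the 34 lay inside 1.5-fold. The 3068 genes of any kind above that mean had a median of -0.03, with 61.3% below 0 and 85.9% with the interval inside 1.5-fold.

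The arrays of a genotype differed from each other by more than the genotypes did. The median deviation of the 46 genes from their mean over 6 arrays was 0.10, 0.01 and -0.03 on the control arrays and 0.06, -0.03 and -0.10 on the Meis1cko arrays, in log2. The ranges overlapped. The 12178 genes at or above the median intensity gave 0.08, 0.03 and -0.09 in control and 0.09, 0.00 and -0.12 in Meis1cko DRGs, in the same order of arrays within each genotype as the family. Between arrays of the same replicate number, the median difference of the family was -0.05, -0.05 and -0.08, with 29, 36 and 35 of the 46 genes lower in Meis1cko DRGs.

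**Figure D2:**
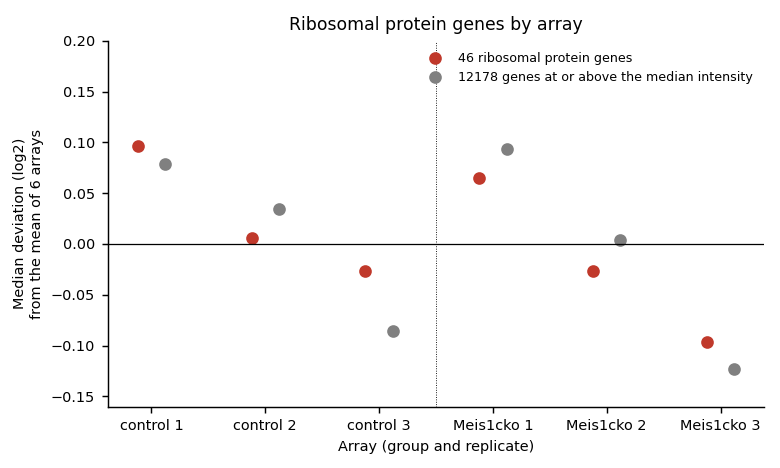
Median log2 deviation from the mean of the 6 arrays, for the 46 ribosomal protein genes (red) and for 12178 genes at or above the median intensity (grey), on each control and Meis1cko array. Both sets are highest on the replicate 1 arrays and lowest on the replicate 3 arrays of each genotype.

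Rps9, a small subunit protein beside the channel where mRNA enters, was the member whose probe sets differed most. The probe set 1434624_x_at had intensities of 2375, 3101 and 1972 in control and 132, 152 and 61.3 in Meis1cko DRGs. Each control array lay far above each Meis1cko array. The brightest probe set, 1433689_s_at, had intensities of 6743, 5922 and 6424 in control and 5788, 5577 and 5624 in Meis1cko DRGs. These groups did not overlap either, but all 6 values were of like size. The third probe set, 1426958_at, was dim, with 20.1, 22.4 and 20.7 in control and 29.0, 24.4 and 23.8 in Meis1cko DRGs, and pointed the other way.

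The log2 fold changes of the 3 probe sets were -4.51 (SE 0.35), -0.17 (SE 0.11) and 0.29 (SE 0.13). From limma, the first had an adjusted p of 0.0235 and the brightest an adjusted p of 1, with a 95% interval of -0.43 to 0.10. For the brightest probe set itself, this interval excludes a fall of the size seen on 1434624_x_at. Within each array, the intensity of 1434624_x_at was 35.2%, 52.4% and 30.7% of that of 1433689_s_at in control DRGs and 2.28%, 2.73% and 1.09% in Meis1cko DRGs. The difference of this ratio between genotypes, -4.34 in log2, is a description, since 1434624_x_at was taken as the Rps9 probe set furthest from 0. It gives no level of one probe set against the other.

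The call on 1434624_x_at rested on all of the arrays but 1. Its log2 fold change stayed between -4.76 and -4.11 when any array was left out. Its adjusted p from limma was 0.241, 0.161 and 0.0567 without control replicate 1, 2 and 3, 0.238 and 0.0899 without Meis1cko replicate 1 and 2, and 0.0054 without Meis1cko replicate 3. The probe set is of the _x_at type, whose probes may also match other transcripts. Of the 100 probe sets of the family, 40% are of this type against 5.42% of all probe sets. Another 36 of them reached the median intensity, with log2 fold changes from -0.26 to 0.14. The brightest probe set of Rps9 is of the _s_at type. The transcript region that each Rps9 probe set covers, and which other transcripts each may match, were not analysed here.

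**Figure D3:**
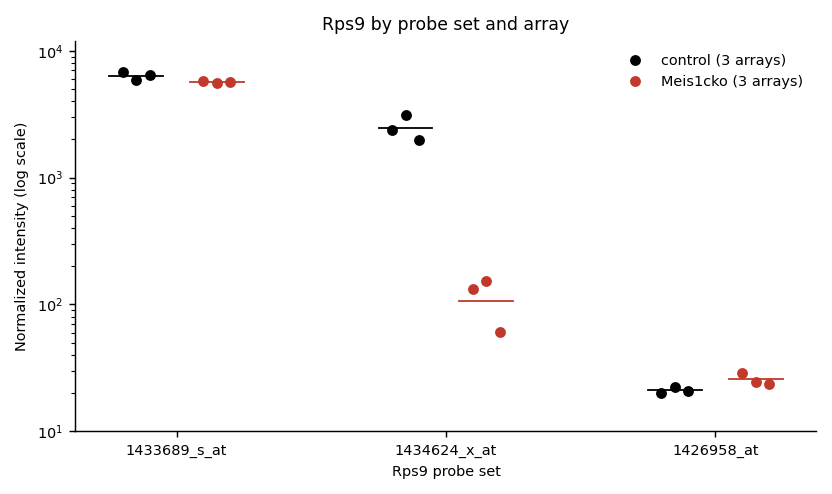
Normalized intensity, on a log axis, of the 3 probe sets of Rps9 on 3 control (black) and 3 Meis1cko (red) arrays. Lines are geometric means. On 1434624_x_at the control arrays read 1972 to 3101 and the Meis1cko arrays 61.3 to 152, while on 1433689_s_at all 6 arrays read between 5577 and 6743.

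Agreement among the probe sets of a gene was then set out for the whole family. Of the 46 genes, 23 had 1 probe set and 23 had 2 or more, up to 6. In 19 genes, 2 or more probe sets were at or above the median intensity, and the range of their log2 fold changes had a median of 0.09, against 0.13 in all 5199 such genes. The range was under 0.2 in 16 of the 19. It was 4.34 for Rps9, which 3 genes of the 5199 reached, Rps9 included. Probe sets of both signs were found in 11 of the 19, or 57.9%, against 47.4% of all such genes, and in 7 when Meis1cko replicate 1 was left out.

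Among probe sets at or above that intensity, the next widest range was 0.32, in Rpl13a, a large subunit protein that also has a role in silencing inflammatory mRNAs. On its 4 probe sets the log2 fold change was -0.13, -0.11, -0.04 and 0.19. The last of these read 1836, 2241 and 1674 in control and 2588, 2299 and 1717 in Meis1cko DRGs, and the groups overlapped. Rpl37a, a zinc-binding protein of the large subunit, had a range of 0.22, with -0.10 and -0.10 on its bright probe sets and 0.12 on 1416218_x_at. Of the others, ranges were 0.15 in Rpl27, 0.14 in Rps20, 0.12 in Rps18, 0.11 in Rps28, 0.11 in Rps15, 0.09 in Rps14 and 0.09 in Rps29. The narrowest was 0.003, in Rps3. With dimmer probe sets included, the range was 0.58 in Rps6 and 0.48 in Rpl27a, wider than in Rpl13a.

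**Figure D4:**
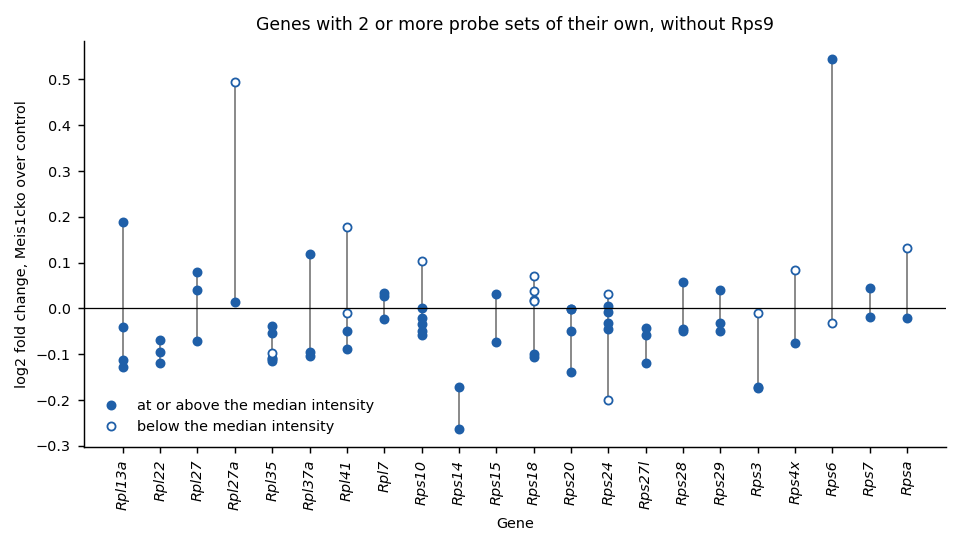
Log2 fold change, Meis1cko over control, of each probe set of the ribosomal protein genes with 2 or more probe sets of their own, with Rps9 left out because its range of 4.34 would compress the axis. Filled points reach the array-wide median intensity and open points lie below it. With dim probe sets included, Rps6 spans 0.58, Rpl27a 0.48 and Rpl13a 0.32.

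Rps6, the small subunit protein that S6 kinases phosphorylate, had the highest value of the family. Its brightest own probe set, 1416142_at, read 357, 433 and 315 in control and 683, 531 and 416 in Meis1cko DRGs. The groups overlapped, since the lowest Meis1cko array lay below the highest control array. Its log2 fold change of 0.54 (SE 0.21) had a 95% interval of 0.05 to 1.04 and, in limma, an adjusted p of 1. It exceeded 1.5-fold with an unadjusted p under 0.05 when control replicate 2 was left out (0.67), or Meis1cko replicate 3 (0.72), or both replicate 3 arrays (0.62).

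The other probe sets listed for Rps6 did not all share this value. The second own probe set, 1453466_at, was dim and had a log2 fold change of -0.03. A further 9 are listed for Rps6 together with 1 other gene. The 4 brightest of these had control means of 13162, 10986, 10160 and 9101, against 368 for 1416142_at. Their log2 fold changes were -0.07, -0.01, 0.05 and -0.04. The less bright ones had 0.07, 0.20, 0.23, 0.34 and 0.26, and 1 of them, 1455981_at, read 338, 407 and 286 in control and 407, 454 and 428 in Meis1cko DRGs, with no overlap.

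**Figure D5:**
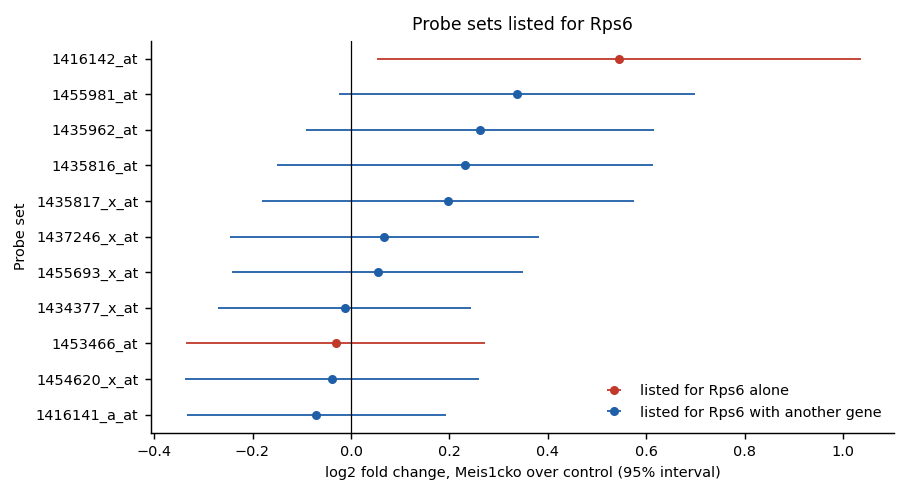
Log2 fold change, Meis1cko over control, with 95% intervals from limma (n = 3 arrays per genotype), of the 11 probe sets listed for Rps6 alone (red) or with another gene (blue). Values run from -0.07 to 0.54, and the interval of 1416142_at is the only one of the 11 that lies above 0.

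By place in the ribosome, the groups of proteins had similar values on their brightest probe sets. At the mRNA entry channel, Rps3, which helps unwind mRNA, had -0.17, Rps2 had -0.04 and Rps9 -0.17 on brightest probe sets. Around the decoding site and the head, Rps15 had -0.07 and Rps18 had 0.02, and Rps23 was measured only on a probe set it shares with another gene (-0.07). Rps14, which lies on the platform of the small subunit, read 10299, 9338 and 9217 in control and 9271, 8606 and 7767 in Meis1cko DRGs. The groups overlapped, and its 2 probe sets had -0.17 and -0.26.

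In the large subunit, Rpl8, near the site where peptide bonds form, had a log2 fold change of -0.07. Its neighbours Rpl3 and Rpl10 were measured on shared probe sets, with -0.07 and 0.00 on the brightest. Along the exit tunnel and its rim, Rpl4 had -0.09, Rpl19 -0.08, Rpl22 -0.07, Rpl35 -0.11 and Rpl39 0.09. Rpl17, Rpl23a, Rpl26 and Rpl31 were measured only on shared probe sets, with -0.05, -0.07, -0.06 and -0.03 on the brightest. A dimmer shared probe set of Rpl17, 1453752_at, had -0.52 with a control mean of 397, and the groups overlapped. Rpl39 read 75.7, 78.4 and 77.4 in control and 84.1, 83.9 and 78.5 in Meis1cko DRGs, which do not overlap, whereas its shared probe set had 0.04.

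Rpl11, which with Rpl5 binds the smallest ribosomal RNA of the large subunit and can inhibit Mdm2, read 7549, 7242 and 7329 in control and 7119, 6913 and 6588 in Meis1cko DRGs. The groups did not overlap, and the log2 fold change was -0.10 (SE 0.11). Rpl5 had -0.11 on its brightest shared probe set. In the stalk that recruits elongation factors, Rplp0 had -0.14 and Rplp2 0.00. Rpl12, at its base, had 0.12 on its own probe set, with a control mean of 79.3, and this value was below 0 with array weights and without control replicate 3. Its 2 brighter shared probe sets had -0.06 and -0.10. Rplp1, measured on 1 shared probe set, read 12103, 11070 and 12071 in control and 13490, 12899 and 12275 in Meis1cko DRGs. These did not overlap, and the log2 fold change was 0.13.

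Among the other members with the smallest unadjusted p, Rpl7a had -0.11 and Rps27 -0.10 below 0. Above 0, Rpl37 had 0.14, Rpl14 0.13, Rps28 0.06, Rps29 0.04 and Rpl7 0.03. The genotypes overlapped for each of them. The own probe set of Rpl14 had a control mean of 166, and its value was below 0 without control replicate 3 or Meis1cko replicate 1. The 5 brighter probe sets that Rpl14 shares had -0.06 to -0.01. Rpl37 had 0.00, 0.04 and 0.04 on its shared probe sets.

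Next came the paralogs, gene copies that can replace a family member in some tissues. Rpl39l, a paralog of Rpl39 known from male germ cells, read 25.7, 30.9 and 26.5 in control and 34.7, 40.8 and 30.1 in Meis1cko DRGs. The groups overlapped, and the log2 fold change was 0.34 (SE 0.15). Rps4l, a relative of Rps4x that RefSeq lists as a pseudogene, read 1024, 1033 and 944 in control and 998, 722 and 859 in Meis1cko DRGs. Its value was -0.23 (SE 0.15), and that of Rps4x was -0.08. Rps27l had -0.06, and Rpl3l, a striated muscle relative of Rpl3, had -0.05 at an intensity below the 25th percentile of the arrays. Rpl10l and Rpl36al had no probe set of their own.

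Ribosomal proteins and their relatives whose symbols do not follow the pattern lay in the same range. Rps3a1 had -0.09, with 7700, 7246 and 7619 in control and 7099, 7039 and 7041 in Meis1cko DRGs, which do not overlap. Rpl22l1 had -0.07, Fau, whose product is cut to give a small subunit protein, -0.04, and Rpl7l1 -0.02. Rack1 had no probe set listed for it alone.

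Many family members share their sequence with pseudogenes, and 110 further probe sets list a ribosomal protein gene together with other genes, up to 11 in all. These carry 29 genes of the family that have no probe set of their own, and with them 75 genes were measured in some way. Their signal cannot be assigned to 1 gene. Their median log2 fold change was -0.04, with 79 of 110 below 0 and a range from -0.52 to 0.34. None of the 110 was called by limma, against 0.00888% of all probe sets called higher and 0.00666% lower. At an unadjusted p under 0.05, 0 were higher and 0 lower, against 1.15% and 1.17% of all. The groups did not overlap for 4 that were higher and 3 that were lower, or 3.64% and 2.73%. That is close to the 3.21% and 3.43% of all probe sets.

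Other genes of the translation machinery also gave no call. Of 9 genes of elongation factors and enzymes that act on them, the median log2 fold change was -0.03. Those with the smallest p were Eef2k, the kinase of elongation factor Eef2, at -0.42, Eif5a2 at 0.07 and Eef1d at -0.05. Of 29 genes of initiation factors and related proteins the median was -0.02, with 0.19 for Eif5, -0.20 for Eif3h and -0.17 for Eif3l. Of 35 genes of ribosome assembly and RNA polymerase I it was -0.04, with -0.32 for Nop58, -0.14 for Ltv1 and -0.14 for Fbl, which are factors that modify or mature ribosomal RNA and subunits. Of 12 genes that control ribosomal protein mRNAs it was 0.08, with 0.28 for Myc, 0.15 for Rptor and 0.10 for Larp1, which binds the pyrimidine stretch. In each of the 4 lists, 0 genes passed the adjusted threshold of limma and 0 had an unadjusted p under 0.05. Of all 18193 genes, 0.0055% were called higher and 0% lower. At the unadjusted p, 1.19% of all genes were higher and 1.37% lower.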

How the data were processed

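Total RNA of DRGs from 3 Meis1cko and 3 control mice was measured on 1-colour Affymetrix arrays. Per probe set and array, the authors deposited a normalized intensity on a linear scale. The authors read the arrays with GeneChip Command Console and GeneSpring and used t-tests, taking p under 0.05 and changes over 1.5-fold. The method of summarising and normalizing is not given in the sources used here, so the treatment of dim probe sets is unknown, and the number of arrays limits the precision. The methods name an RNeasy kit and the labels Trizol for the extraction.

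Intensities were floored at 1 and taken to log2, 64 array control probe sets were left out, and the genotypes were then compared in limma 3.58.1 (lmFit, eBayes; R 4.3.3), with Benjamini-Hochberg adjustment over 45037 probe sets and a threshold of 0.05. Genes came from the array annotation, which lists 1 gene for 34945 probe sets, more than 1 for 932 and none for 9160. The limma fit was tested on simulated data.

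Arrays of the same replicate number deviated from their group means together (r of 0.424, 0.535 and 0.766), so the numbers were taken to pair the arrays, although the sources do not say what they stand for. Correlations between numbers were 0.337 and 0.319 for replicates 1 and 2, and -0.60 to -0.52 where replicate 3 was involved. Replicates 1 and 2 were thus less clearly paired than replicate 3. The limma fit behind the results had no replicate block and so did not use the pairing. With the block, the adjusted p of the brightest Meis1 probe set in limma was 0.16.

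Named were Rps9, Meis1, members past 1.5-fold at p under 0.05, the 10 with the smallest p per direction, the 10 with the widest range among probe sets, the structural, paralog and outside-pattern lists, and 3 genes of each other translation list. Other genes, motifs and printed promoters were chosen after values or sequences were seen. The members and lists were chosen with earlier results of these data known. Alternatives were a replicate block, a trend in eBayes, array weights, the methods' t-test, quantile normalization, centring, offsets of 16 and 50, intensity filters, leaving out arrays, and other ways of combining probe sets.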

Additional observations from a re-analysis of the deposited data

How the results depend on the processing

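The median log2 fold change of the family was below 0 in all 20 alternatives, between -0.09 and -0.02, and moved by less than the replicate SD of 0.07. Of the 45 brightest probe sets other than that of Rps9, 29 kept their sign in the 18 refits and 16 did not, and of 98 member probe sets 0 were called in any. The brightest probe set of Rps9 ranged from -0.22 to -0.12 and was never called. The value of 1434624_x_at was -4.51 with an adjusted p of 0.917 in the methods' t-test, -4.30 (0.0912) with an offset of 16 and -3.96 (0.156) with an offset of 50, where 0 member probe sets were called, as in the t-test. Leaving out 1 array gave -4.76 to -4.11 and 0 to 1 called. With the replicate block its adjusted p from limma was 3.20e-04, 1 member probe set was called as without the block, and calls over all probe sets rose from 7 to 37. They were 177 with array weights, 0 in the t-test, 11 after quantile normalization, 1 with either offset, 4 with the filter at the median, 1 to 15 without 1 array and 26 without both replicate 3 arrays. Member probe sets past 1.5-fold at p under 0.05 were 2 with array weights (Rps9 and Rpl41) and without both replicate 3 arrays (Rps9 and Rps6), and 1 to 2 without 1 array, where Rps6 or Rpl27a joined Rps9. Genes with probe sets of both signs were 7 to 12 without 1 array. The cause of these changes was not tested.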
